A study of Mus musculus with 10 samples.

Results

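The 9 genes described here carry the output of the circadian clock in liver: the PAR bZIP transcription factors Dbp, Tef and Hlf, their repressor Nfil3, the clock-linked repressors Ciart, Bhlhe40 and Bhlhe41, the mitotic kinase gene Wee1, and the glucocorticoid-induced gene Tsc22d3. They were named by symbol out of 18193 genes with a probe set of their own on the array, and 18 probe sets carried one of these symbols. A gene's main value came from the probe set selected on the highest mean signal over the 10 arrays, and its other probe sets are described beside it. The theme was chosen with results of these arrays known, so the fits below describe size against spread and are no independent evidence about the genes. Of the 9 genes, 8 passed the filter on low signals, which left 11032 genes, and Bhlhe41 did not.

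Liver RNA of a mixed 129/B6 mouse strain was measured on 10 Affymetrix arrays, which report 1 signal per probe set. At 11 weeks of age the arrays held wild-type females, wild-type males, Gnmt knockout females and Gnmt knockout males, 1 array each, and each of these arrays was an equal pool of RNA from 3 mice. The 6 other arrays held tissue of single aged Gnmt knockout mice. A 21-month female gave dysplastic nodules, here called the nodule, an 18-month male gave a hepatocellular carcinoma (HCC), a 14-month female gave another HCC, and liver beside each lesion was also measured. All aged arrays were knockout, and no aged wild-type array was among the samples. Lesion and adjacent arrays with matching sex and age were taken as 1 mouse, which the labels do not state. The hour at which livers were collected, a main determinant of clock gene signals, is not given in the sources used here.

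In the clock of each cell, the activators CLOCK and BMAL1 (encoded by Arntl) bind E-boxes and switch on Dbp, Ciart and the Per and Cry genes, whose PER and CRY products then inhibit the activators. REV-ERB proteins (Nr1d1 and Nr1d2) repress Arntl and Nfil3 through AGGTCA half-sites, which ROR proteins activate. DBP, TEF and HLF activate genes with a D-box, among them drug-metabolism genes of the liver, while NFIL3 occupies the same D-boxes and represses, so that in a normal mouse liver Dbp and Nfil3 peak at opposite times of day.

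The upstream sequences of Ciart, Tef, Dbp and Nfil3 are shown because these genes varied with Dbp or against it across the arrays. The windows are the 250 bases before an annotated start in RefSeq, build GRCm38.p6. Capitals mark the E-box CACGTG, which reads the same on both strands, and the half-site AGGTCA, which appears as TGACCT when it lies on the other strand. The Ciart window is chr3:95882229-95882478 on the minus strand, the Tef windows are chr15:81802423-81802672 and chr15:81811164-81811413 on the plus strand, the Dbp window is chr7:45704997-45705246 on the plus strand, and the Nfil3 window is chr13:52981040-52981289 on the minus strand.
Ciart: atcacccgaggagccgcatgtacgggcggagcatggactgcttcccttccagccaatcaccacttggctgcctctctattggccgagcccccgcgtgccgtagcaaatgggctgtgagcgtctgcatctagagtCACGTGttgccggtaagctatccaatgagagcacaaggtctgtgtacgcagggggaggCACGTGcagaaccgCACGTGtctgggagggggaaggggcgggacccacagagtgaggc
Tef, upstream start: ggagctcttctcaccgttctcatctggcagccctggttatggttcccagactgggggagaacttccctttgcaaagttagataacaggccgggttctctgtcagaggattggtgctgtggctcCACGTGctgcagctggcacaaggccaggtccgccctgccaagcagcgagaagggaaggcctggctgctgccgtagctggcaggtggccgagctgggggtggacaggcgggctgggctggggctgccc
Tef, downstream start: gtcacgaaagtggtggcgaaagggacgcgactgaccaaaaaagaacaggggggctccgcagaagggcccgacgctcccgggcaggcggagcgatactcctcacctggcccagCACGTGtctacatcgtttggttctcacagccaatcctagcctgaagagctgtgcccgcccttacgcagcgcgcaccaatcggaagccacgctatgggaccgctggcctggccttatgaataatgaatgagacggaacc
Dbp: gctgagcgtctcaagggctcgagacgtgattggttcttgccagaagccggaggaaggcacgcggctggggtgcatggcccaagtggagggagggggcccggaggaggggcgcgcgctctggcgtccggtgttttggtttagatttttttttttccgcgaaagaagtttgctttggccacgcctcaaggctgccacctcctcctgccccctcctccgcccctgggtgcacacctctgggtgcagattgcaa
Nfil3: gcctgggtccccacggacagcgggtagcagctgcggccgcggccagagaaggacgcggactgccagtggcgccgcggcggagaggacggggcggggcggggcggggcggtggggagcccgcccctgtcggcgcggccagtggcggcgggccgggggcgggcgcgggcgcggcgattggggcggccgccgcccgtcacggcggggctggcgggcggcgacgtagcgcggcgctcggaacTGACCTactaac
Ciart held 3 E-boxes, which began 116, 58 and 44 bases before the start, and each Tef window held 1, at 127 and 138 bases. The Bhlhe41 window held 1 E-box, at 153 bases. The Nfil3 window held 1 AGGTCA half-site and no E-box, and the Dbp, Hlf and Tsc22d3 windows held neither motif. The Dbp window overlaps the annotated gene, which begins at base 45705100. The Nfil3 window lies within its gene, whose outer end on the minus strand is base 52982878. Sequence outside the windows was not searched, so motifs there would be missed. The D-box letters TTATGTAA and TTACGTAA, searched on both strands, were in none of the 10 upstream sequences found for 7 of the genes, and no match overlapped another motif. Wee1 and Bhlhe40 had no entry. Among 32851 promoter windows of this length, 6.02% held an E-box, 0.0609% (20 windows) held at least 3, 0.931% held a D-box and 14.0% held the half-site.

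The knockout could be read from Gnmt, which encodes glycine N-methyltransferase: its signal was 59473 and 52140 in the wild-type female and male pools, 245 and 190.0 in the knockout female and male pools, and 11.7 to 329 in the aged arrays. Hepatocyte markers were high in every array, with summed signals of 241826 to 369063 for the 4 measured markers Alb, Apoa1, Ttr and Cps1. Neutrophil markers summed to 13856 and 13702 in the tumour and adjacent liver of the male HCC mouse and to 224 to 1570 elsewhere. The ratio of the hybridisation controls BioC to BioB was 2.62 to 3.16 at 11 weeks and 0.92 to 1.08 on the aged arrays. Signals of Dbp, Nfil3, Ciart and Wee1 set 3 arrays apart from the others, the wild-type female pool and both arrays of the male HCC mouse. Those of Hlf, Bhlhe40, Tsc22d3 and Nr1d1 did not set the same 3 arrays apart. The differences of the 8 genes that rest on these arrays, and the likeness to Dbp, are given with and without them. The number of arrays limits the precision of every value.

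Dbp, the clock-driven PAR bZIP activator, had the largest spread of the 8 genes past the filter. In the 11-week pools its signal was 191 in wild-type females, 9904 in wild-type males, 11097 in knockout females and 8414 in knockout males. In the aged mice it was 2505 in the nodule and 7798 beside it, 42.2 in the male HCC and 214 beside it, and 2390.2 in the female HCC and 4939 beside it. The 3 lowest signals were thus those of the male HCC mouse and of the wild-type female pool, and the other 7 arrays lay between 2390.2 and 11097 with a gap below them. The second probe set put the same 3 arrays lowest, at 86.8 in male HCC-adjacent liver, 105 in the wild-type female pool and 139.5 in the male HCC. The 2 probe sets therefore disagreed on which of the arrays of the male HCC mouse was higher. On the log2 scale, here always log2(signal + 16.8), the SD of Dbp over the 10 arrays was 2.74, which ranked 17 of 11032 genes, whose median SD was 0.42. In bulk tissue, fewer cells of a type and less RNA per cell cannot be told apart.

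Tef, a PAR bZIP activator related to Dbp, varied less. Its signal was 2287.5, 6038, 3931 and 4295 in wild-type females, wild-type males, knockout females and knockout males. It was 2512 in the nodule and 4686 beside it, 551 and 798 in the male HCC and its adjacent liver, and 2553 and 3335 in those of the female HCC. The male HCC mouse held the 2 lowest signals and the wild-type female pool the next, close to the nodule. The SD was 1.10 in log2 units. Its 2 other probe sets were dim, with mean signals of 126.9 and 123.8 against 3099 for the main one, and at the former the nodule and male HCC differences from adjacent liver were 0.16 and 2.73, against -0.90 and -0.52 at the main one.

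Hlf, the third PAR bZIP activator, did not share the low value of the wild-type female pool. Its signal was 1041 in wild-type females, 1554 in wild-type males, 772 in knockout females and 482 in knockout males. In the aged mice it was 589 in the nodule and 864 beside it, 229.8 and 223 in the male HCC and its adjacent liver, and 549 and 451 in those of the female HCC. The wild-type pools were thus the 2 highest arrays, with no overlap with the knockout pools, and the male HCC mouse held the 2 lowest. The second probe set also had the wild-type pools highest, at 755 in females and 911 in males, above 555 in knockout females and 395 in knockout males.

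Nfil3, the bZIP repressor of D-box genes, was measured by 1 probe set and was highest where Dbp was lowest. Its signal was 1989 in wild-type females, 829 in wild-type males, 489 in knockout females and 442 in knockout males. In the aged mice it was 517 in the nodule and 745 beside it, 1978 in the male HCC and 1858 beside it, and 468 and 482 in the female HCC and its adjacent liver. The 3 arrays with the lowest Dbp signals had the 3 highest Nfil3 signals, and the other 7 arrays lay between 442 and 829.

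Ciart, a repressor of CLOCK and BMAL1, followed Dbp at a lower signal. It was measured at 23.0 in wild-type females, 649 in wild-type males, 803 in knockout females and 611 in knockout males. It was at 515 in the nodule and 873 beside it, 12.0 and 14.9 in the male HCC and its adjacent liver, and 100.3 and 697 in those of the female HCC. The same 3 arrays as for Dbp were lowest, and the female HCC was the next lowest. The signals of the male HCC mouse lay under the constant of 16.8, so the difference between its tumour and adjacent liver has no measured size. The SD of Ciart was 2.12, ranked 52.

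Bhlhe40, a repressor that competes for E-boxes and also responds to hypoxia and other stimuli, showed no such split. Its signal was 1575 in wild-type females, 2479 in wild-type males, 3947 in knockout females and 2005 in knockout males. In the aged mice it was 2244 in the nodule and 3954 beside it, 3645 in the male HCC and 4839 beside it, and 5082 and 3737 in the female HCC and its adjacent liver. Its SD of 0.57 was the smallest of the 8 genes. Its paralog Bhlhe41 was dim, with signals of 22.0 to 147.8 at its brighter probe set, and the second probe set was at 4.8 to 32.6. Bhlhe41 was below the filter on low signals and was not tested.

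Wee1, a kinase that holds CDK1 inactive before mitosis and a direct clock target in liver, had a signal of 94.6 in wild-type females, 1366 in wild-type males, 947 in knockout females and 891 in knockout males. It was 676 in the nodule and 1000.2 beside it, 185.2 and 185.1 in the male HCC and its adjacent liver, and 799.8 and 572 in those of the female HCC. The wild-type female pool was lowest and the male HCC mouse next, with no difference between its tumour and adjacent liver (0.00 log2 units). The dimmer second probe set also put these 3 arrays among its lowest values, at 8.9, 115.4 and 76.9, but there the female HCC, at 115.0, was as low as the male HCC.

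Tsc22d3, which encodes the glucocorticoid-induced leucine zipper protein GILZ and is on the X chromosome, had its 2 highest signals in the wild-type pools. It was 7279 in wild-type females, 4682 in wild-type males, 2083 in knockout females and 2442 in knockout males. In the aged mice it was 1889 in the nodule and 3974 beside it, 1388 and 1331 in the male HCC and its adjacent liver, and 2512 and 3741 in those of the female HCC. The second probe set also had the wild-type pools highest, at 4259 and 2274, against 983 and 1039 in the knockout female and male pools. Its 2 other probe sets were dimmer, with mean signals of 356 and 42.5, and the dimmest one was higher in knockout than in wild-type males.

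**Figure D1:**
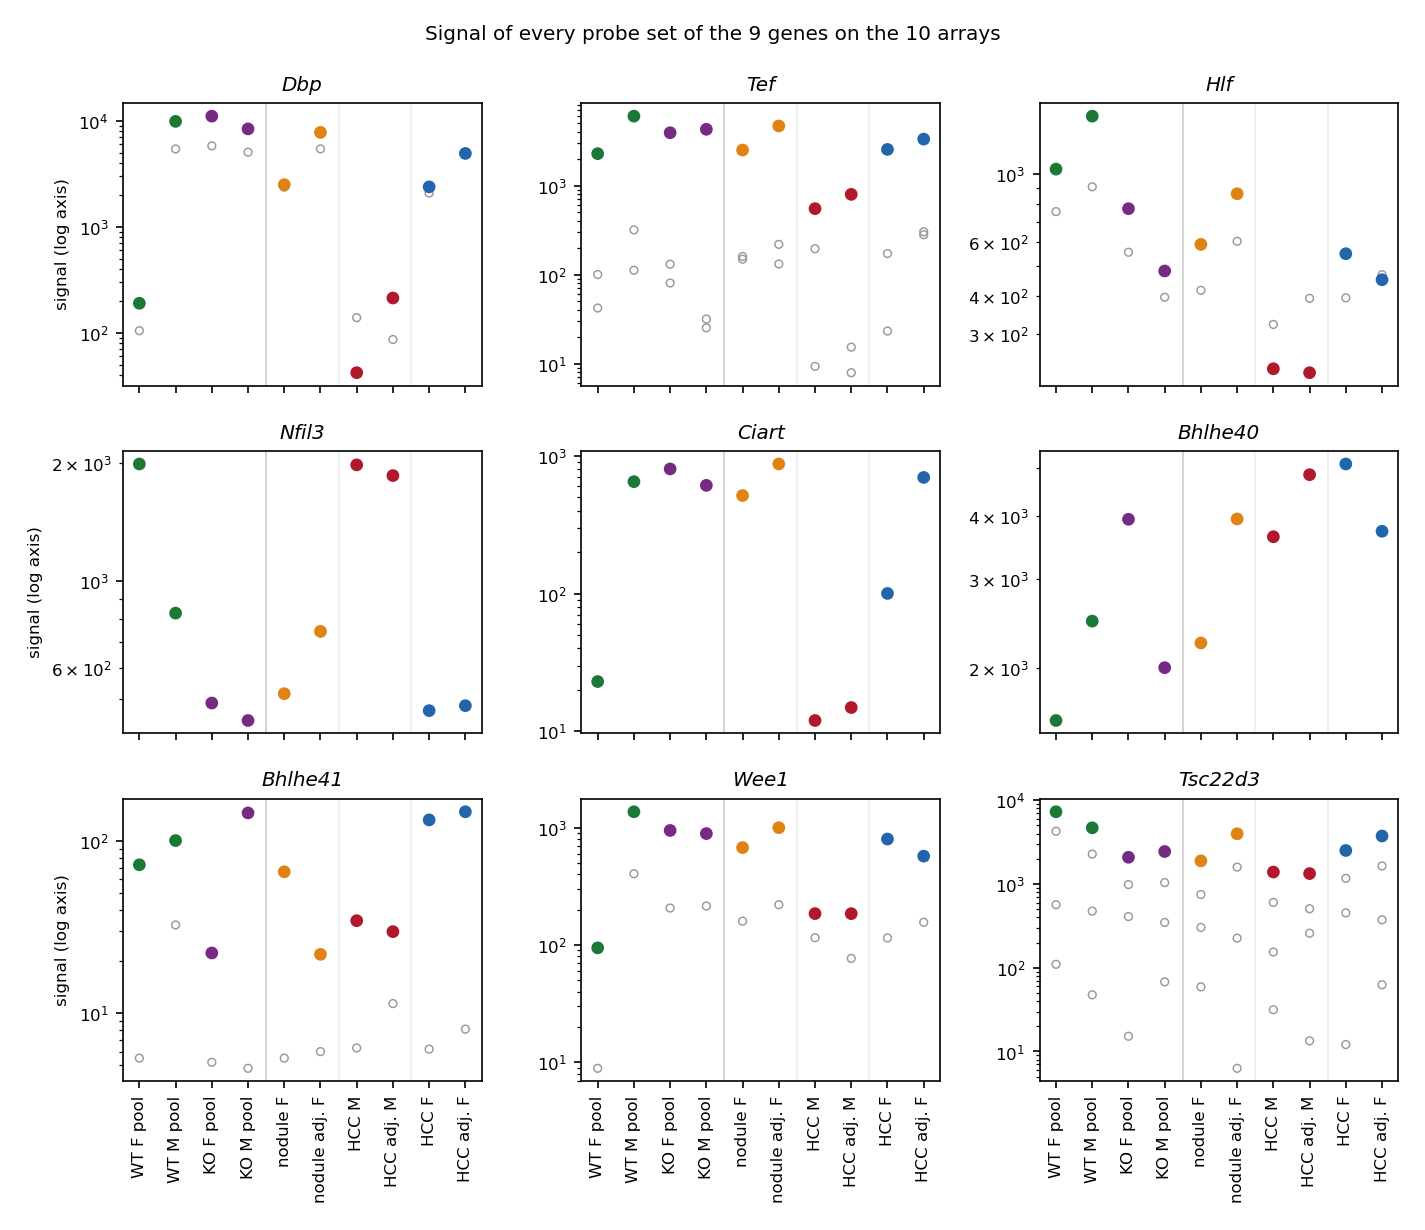
Signal of each probe set (log axis) on each of the 10 arrays for the 9 genes, filled points for the main probe set and open circles for the others. Dbp and Ciart are lowest on the wild-type female pool and both arrays of the male HCC mouse, where Nfil3 is highest, while Hlf and Tsc22d3 are highest on the 2 wild-type pools.

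The first comparison asked how these genes differ without Gnmt at 11 weeks. In both sexes, Hlf, Nfil3 and Tsc22d3 had lower signals in knockout than in wild-type liver, and Dbp, Tef, Ciart, Bhlhe40 and Wee1 were higher in knockout females but lower in knockout males. None of the 8 genes passed the test at a limma adjusted p below 0.05, against 1.45% of all genes, and 5 of 8 had an unadjusted p below 0.05, against 19.5% of all genes. The median difference was 0.32 over the 8 genes and -0.05 over all genes. The p-values rest on 1 residual degree of freedom and on the spread shared across genes, and n was 2 pools per genotype.

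Tsc22d3 differed by -1.37 ± 0.26 (SE, limma adjusted p = 0.058), with -1.80 in females and -0.93 in males. Nfil3 differed by -1.44 ± 0.31 (adjusted p = 0.076), with -1.99 in females and -0.88 in males. Hlf differed by -1.04 ± 0.32 (adjusted p = 0.159), with -0.42 in females and -1.66 in males. These were the 3 of 8 genes with both knockout pools below both wild-type pools, as were 26.1% of all genes, and 0 of 8 had both knockout pools above, as had 22% of all genes. Under quantile normalization Nfil3 (-1.32, adjusted p = 0.0204) and Tsc22d3 (-1.38, adjusted p = 0.00693) passed, in a fit that called 607 of all genes against 160, and the second probe set of Tsc22d3 passed too (-1.61, adjusted p = 0.0499). In fits over all other arrays, Nfil3 differed by -0.18 without the wild-type female pool and Hlf by -0.28 without the wild-type male pool, while Tsc22d3 ran from -1.97 to -0.76 over the pools left out.

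Dbp differed by 2.75 ± 1.14 (adjusted p = 0.249), with 5.74 in females and -0.23 in males. Ciart differed by 2.14 ± 0.88 (adjusted p = 0.244), with 4.36 in females and -0.09 in males. Wee1 differed by 1.25 ± 0.74 (adjusted p = 0.4), with 3.11 in females and -0.61 in males. The within-sex values were positive in the female pools only, in which the Dbp signal was 58.2 times as high in knockout as in wild-type liver. The Ciart signal in wild-type females, 23.0, was close to the constant, so the size of its difference depends on the constant. Tef (0.14 ± 0.31, adjusted p = 0.842) and Bhlhe40 (0.51 ± 0.37, adjusted p = 0.499) differed least, with 0.78 and 1.32 in females and -0.49 and -0.30 in males. An opposite sign in the sexes was found for 5 of 8 genes and for 34.7% of all genes, and this difference between the sexes has 1 pool a side and was not tested. Without the wild-type female pool, in a fit over all other arrays, the differences turned to -1.73 for Dbp, -1.04 for Ciart, -1.17 for Wee1 and -1.24 for Tef. The sex term of that fit was set partly by aged tissue. The male pools alone differed by only -0.23 for Dbp, -0.09 for Ciart, -0.61 for Wee1 and -0.49 for Tef. Summed signals of the 5 endothelial markers were 4816 and 3583 in wild-type females and males and 1880.4 and 1754 in knockout females and males, and those of the 5 macrophage markers 17133 and 11594 against 10650.2 and 9646. The 3' to 5' ratio of Actb was 2.62 in wild-type females, 2.60 in wild-type males, 3.38 in knockout females and 3.18 in knockout males. Their part in these differences was not tested.

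**Figure D2:**
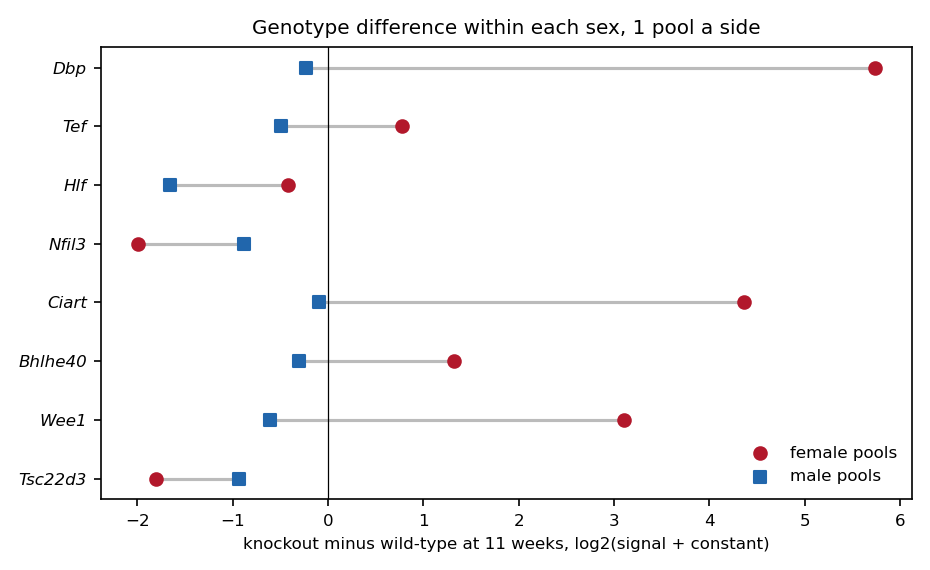
Difference between knockout and wild-type pools at 11 weeks (log2 units, horizontal axis) for 8 genes, circles for females and squares for males, 1 pool a side. Dbp runs from -0.23 in males to 5.74 in females, whereas Hlf, Nfil3 and Tsc22d3 lie below 0 in both sexes.

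The same 4 pools were compared by sex. Dbp (-2.59), Ciart (-1.84), Wee1 (-1.77) and Tef (-0.76) had lower values in females than in males, and Nfil3 (0.69) had higher ones. No gene of the 8 passed (limma adjusted p from 0.538 to 0.979), against 0.272% of all genes, and 2 of 8, Tef and Wee1, had an unadjusted p below 0.05, against 9.21% of all genes. The median was -0.36 over the 8 genes and 0.03 over all genes. Between the wild-type pools alone, the difference of females from males was -5.58 for Dbp, -4.07 for Ciart, -3.63 for Wee1 and -1.39 for Tef. Between the knockout pools it was 0.40, 0.39, 0.09 and -0.13. This comparison and that of the genotypes use the same arrays and turn on the same low values of the wild-type female pool.

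The lesion comparisons asked how the genes differ between a nodule or tumour and the liver beside it. Dbp was lower in each of the 3 lesions, and its signal in adjacent liver was 3.11 times that of the nodule, 5.06 times that of the male HCC and 2.07 times that of the female HCC. Tef was also lower in each, with ratios of 1.87, 1.45 and 1.31. For Ciart the ratio was 1.69 for the nodule and 6.95 for the female HCC, and in the male HCC mouse both signals were below the constant. A measured drop in all 3 pairs, with no pair at signals wholly below the constant, was thus found for 2 of 8 genes, Dbp and Tef, and for 16.4% of all genes. By sign alone Ciart made it 3 of 8, and the share of all genes, rounded, was the same.

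Over the 3 pairs, Dbp differed by -1.55 ± 0.23 (limma adjusted p = 0.14), Tef by -0.60 ± 0.19 (adjusted p = 0.39) and Ciart by -1.16 ± 0.51 (adjusted p = 0.525). Tsc22d3 differed by -0.53 ± 0.25 (adjusted p = 0.549), with -1.07 in the nodule, 0.06 in the male HCC and -0.57 in the female HCC. Hlf (-0.08), Nfil3 (-0.15), Bhlhe40 (-0.26) and Wee1 (-0.03) differed by about their SE or less, with pairs of either sign. Of the 8 genes 0 passed, against 0.00906% of all genes, and 2, Dbp and Tef, had an unadjusted p below 0.05, against 9.93%. The median was -0.40 over the 8 genes and 0.00 over all genes, on 2 residual degrees of freedom.

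The values moved with the pair left out. Without the male HCC pair Dbp differed by -1.34 and passed (limma adjusted p = 0.0373), in a fit that called 177 of all genes, and Ciart differed by -1.68 (adjusted p = 0.0905). Without the female HCC pair Dbp differed by -1.80 (adjusted p = 0.341) and Ciart by only -0.44 (adjusted p = 0.919). Without the nodule pair Dbp did not pass either, as given below for the 2 HCC pairs. In both female pairs 5 of 8 genes were lower in the lesion (Dbp, Tef, Nfil3, Ciart and Tsc22d3), as were 27.8% of all genes. At the second probe set of Dbp the pair differences were -1.20 in the nodule, 0.59 in the male HCC and -1.24 in the female HCC. The lower Dbp value of the male HCC was therefore seen at only 1 of its 2 probe sets, both of them at low signals in that mouse, and the 3-pair value at the second probe set was -0.61 (adjusted p = 0.637). The 18S control, measured by its 3' probe set, was also lower in each lesion than beside it, at 20.9 against 79.9, 19.5 against 57.3 and 21.5 against 79.1, and its part in these differences was not tested.

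Over the 2 HCC pairs, which are part of the 3 lesion pairs, Dbp differed by -1.5 ± 0.32 (adjusted p = 0.171) and Ciart by -1.37 ± 0.80 (adjusted p = 0.796), the latter almost wholly from the female pair at -2.61. At the second probe set Dbp differed by -0.32 ± 0.42 (adjusted p = 0.933). The other 6 genes ran from -0.45 (Tef) to 0.24 (Wee1). None of the 8 genes passed, against 0.0816% of all genes, and 1, Dbp, had an unadjusted p below 0.05, against 7.65%. The median was -0.12 over the 8 genes and -0.01 over all genes.

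In the nodule, with 1 array a side and no test, all 8 genes were lower than in adjacent liver. The differences ran from -0.51 for Nfil3 to -1.63 for Dbp. The share of all genes lower in the nodule was not counted, so the count of 8 has no background beside it. A difference of -1 or lower was reached by 2 of 8 genes, Dbp and Tsc22d3, and by 3.86% of all genes. At the second probe sets the nodule value was -1.07 for Tsc22d3, -0.52 for Hlf and -0.43 for Wee1, while it was 0.16 for Tef. At the 2 dimmer probe sets of Tsc22d3 the nodule was higher than adjacent liver, by 0.40 and 1.72, so the probe sets of this gene disagreed in direction. Macrophage markers summed to 14354 in the nodule and 8136 beside it, and their part was not tested.

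**Figure D3:**
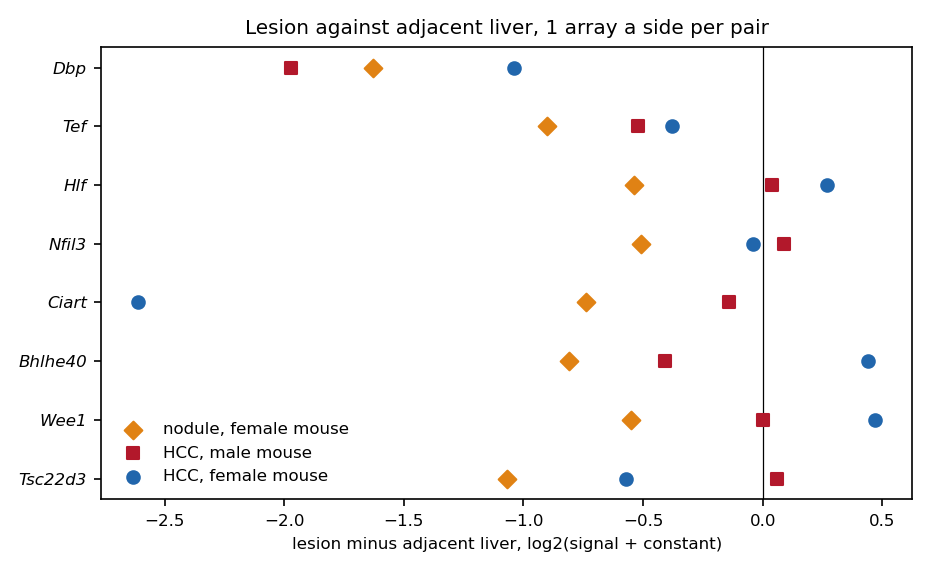
Lesion minus adjacent liver (log2 units, horizontal axis) for 8 genes in the nodule (diamonds), the male HCC (squares) and the female HCC (circles), 1 array a side. Dbp, at -1.63, -1.97 and -1.04, and Tef, at -0.90, -0.52 and -0.38, lie below 0 in all 3 pairs, and Ciart reaches -2.61 in the female HCC.

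Adjacent liver of the aged knockout mice was set against the young knockout pools. The spread was wide: Dbp was 7798 and 4939 in the adjacent livers of the nodule and female HCC mice and 214 in that of the male HCC mouse, against 11097 and 8414 in the pools. For Dbp all 3 adjacent livers were below both pools at the main probe set. At the second probe set nodule-adjacent liver, at 5456, was above the knockout male pool, at 5073. The share of all genes with such a split was not counted. Dbp differed by -2.70 ± 0.87 (limma adjusted p = 0.391), Ciart by -1.87 ± 0.86 (adjusted p = 0.432), Wee1 by -1.11 ± 0.47 (adjusted p = 0.406) and Nfil3 by 1.03 ± 0.43 (adjusted p = 0.406). No gene of the 8 passed, nor did any other (0% of all genes), and 2 of 8, Dbp and Nfil3, had an unadjusted p below 0.05, against 12.3% of all genes. The median was -0.82 over the 8 genes and 0.08 over all genes.

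These values turned on the male HCC mouse. Without its adjacent liver, which left the female arrays to set the difference, Dbp differed by -0.84, Ciart by -0.04, Wee1 by -0.32 and Nfil3 by 0.28. Without the knockout female pool, which left the male mouse against the male pool, Dbp (-5.19, adjusted p = 0.00464), Tef (-2.40, adjusted p = 0.0222) and Ciart (-4.31, adjusted p = 0.0105) passed, in a fit that called 441 of all genes. Each of these differences is 1 male mouse against 1 male pool, and the 1 residual degree of freedom comes from the female adjacent livers alone. Without the nodule-adjacent liver Dbp passed at -3.18 (adjusted p = 0.0236), in a fit that called 110. Age, a nodule or tumour in the same liver, pooling of mice and array batch cannot be told apart in this comparison. The pools are the same arrays as in the genotype comparison.

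The core loop genes that drive these outputs were read from a list of 16 genes, of which 14 were measured and 13 passed the filter. None of the 13 passed the test in any of the 5 comparisons, and their medians lay between -0.13 and 0.04. Arntl, the partner of CLOCK, had a signal of 912 in wild-type females and 81.9, 22.2 and 85.2 in wild-type males, knockout females and knockout males. It was at 128.7 in the nodule and 13.6, below the constant, beside it. It was at 847 and 553 in the male HCC and its adjacent liver, and at 382 and 338 in those of the female HCC. Arntl thus ran opposite to Dbp (Pearson r of -0.84 over the 10 arrays, and -0.71 over the 7 left when the 3 arrays that stand apart are removed), though in the female HCC mouse it was at a similar level on both sides while Ciart was 6.95 times lower in the tumour. Nr1d2, which encodes a REV-ERB repressor, followed Dbp, at 2918 in wild-type females, 7410.6 in wild-type males, 6286 in knockout females and 6677 in knockout males, and at 960 and 978 in the male HCC mouse. Nr1d1, its paralog, was low in the male HCC mouse at 21.5 and 58.1 but not in the wild-type female pool, at 590.3. Over the 7 arrays the r of Nr1d2 with Dbp was 0.75, against 0.93 over the 10, and that of Nr1d1 was -0.02, against 0.76. That of Per2 was -0.23 against 0.90, while that of Clock was -0.76 against -0.52.

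**Figure D4:**
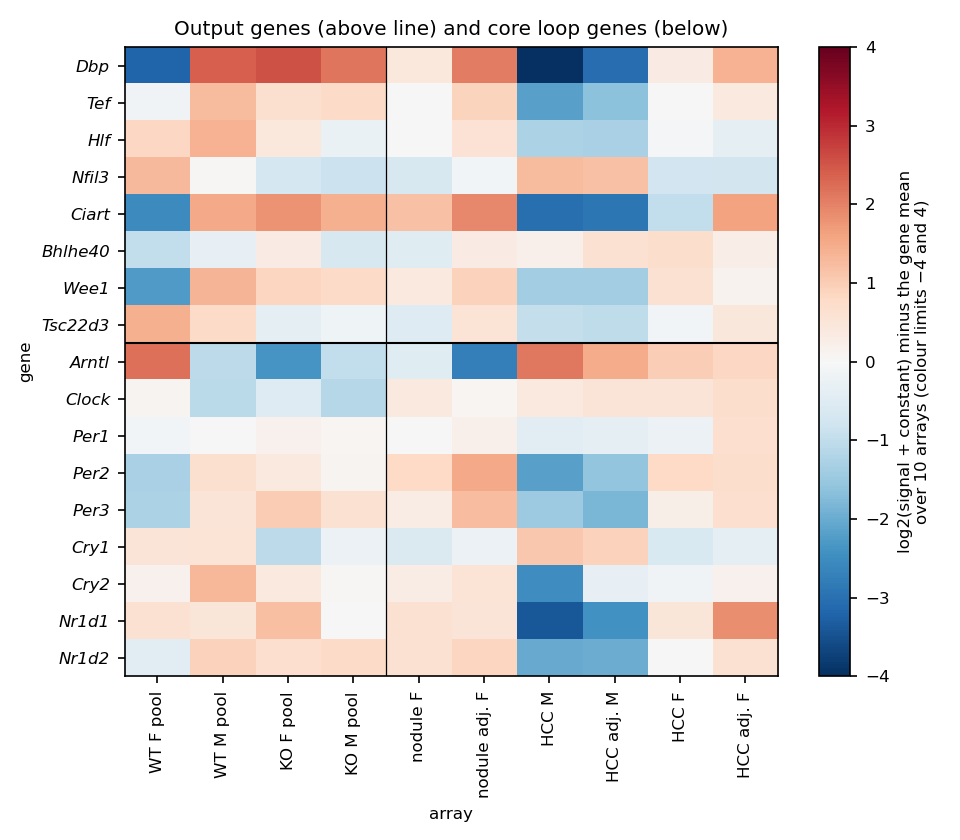
Level of 8 output genes (above the line) and 9 core loop genes (below) on each array, as log2(signal + 16.8) minus the mean of the gene over the 10 arrays, red above and blue below the mean. Dbp, Ciart and Wee1 are blue on the wild-type female pool and both arrays of the male HCC mouse, where Arntl and Nfil3 are red, while Hlf and Tsc22d3 are red on the wild-type female pool.

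Genes known as targets of the PAR bZIP factors were lower in knockout liver in part. Of 15 such genes, 11 were measured and past the filter, and 3 fell in the knockout, as did 0.743% of all genes, with a list median of -0.99 against -0.05 over all genes. Cyp2c50, a drug-metabolising cytochrome P450, fell by 1.43 ± 0.17 (limma adjusted p = 0.0177), from signals of 57039 and 41686 in wild-type females and males to 19851 and 16440.1. Cyp2b10, also a cytochrome P450, fell by 1.92 ± 0.33 (adjusted p = 0.0488), and Ces2a, a carboxylesterase, fell by 1.16 ± 0.18 (adjusted p = 0.0424). Signal from related Cyp2 genes was not separated. Thrsp, a regulator of fat synthesis, differed by 1.40 ± 1.0 without passing (limma adjusted p = 0.485). Its signal was 1653 in wild-type females and 27114 in knockout females, but 27417 in wild-type males and 11801.5 in knockout males. It was thus higher in the knockout in females only, where the wild-type pool was low. In the 3 lesions 0 of 11 passed, with a median of -0.56 and 8 of 11 below 0, and Cyp2c50 was nearest to passing (-1.62 ± 0.20, adjusted p = 0.0872). In females against males, the 2 HCC pairs and the aged adjacent livers, 0 of 11 passed as well.

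Of 20 other clock-controlled liver genes, 18 were past the filter, and 3 fell in the knockout, against 0.743% of all genes: Ppp1r3c, a glycogen-targeting phosphatase subunit (-2.56 ± 0.25, adjusted p = 0.0139), Lonrf3 (-1.94 ± 0.33, adjusted p = 0.0472) and the elongase gene Elovl3, known for higher expression in males (-1.93 ± 0.23, adjusted p = 0.0177). Their directions were the same under quantile normalization and under centring on the 75th percentile, as were those of the 3 PAR bZIP targets. Elovl3 was also lower (-3.23 ± 0.23, adjusted p = 0.00247) and Ppp1r3c higher (2.10 ± 0.25, adjusted p = 0.0269) in females than in males, against 0.109% of all genes called lower and 0.163% called higher. No gene of the list passed in the lesion or age comparisons. The list's median for the genotype was 0.09, against -0.05 over all genes.

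For Tsc22d3, 15 glucocorticoid target genes were read, all past the filter. In the knockout 1 of them passed, against 0.707% of all genes called higher: Sult1e1, an estrogen sulfotransferase gene that rose (3.12 ± 0.38, adjusted p = 0.0189) and was below the constant in wild-type males. Lcn2 had the largest difference of the list (3.8 ± 0.96, limma adjusted p = 0.107) but did not pass. Mt2 (1.59 ± 0.29, adjusted p = 0.0544) and Mt1 (1.07 ± 0.19, adjusted p = 0.051), the metallothioneins, did not pass either. The list's median was -0.21 with 9 of 15 genes below 0. None of the 15 passed in the other 4 comparisons. For Bhlhe40, 12 of 14 hypoxia targets were past the filter, and none passed in any comparison. For Wee1, 7 of 12 genes of the G2/M kinases and cyclins were past the filter, and none passed in any comparison. In the lesions all 7 of these were above 0, with a median of 1.20 against 0.00 over all genes. Among them were Aurka (2.08 ± 0.48, limma adjusted p = 0.28) and Cdk1, the kinase that WEE1 inhibits (1.93 ± 0.53, adjusted p = 0.344). Wee1 differed by -0.03. The share of all genes above 0 was not counted. Genes high in lesions passed the filter more readily, because its mean includes the lesion arrays. The count of 7 is therefore not independent of the lesion values. Of the measured genes below the filter, Pkmyt1 and Wee2 were lower in the nodule than beside it, and Cdc25c and Chek1 were higher. Beside the nodule Aurka was below the constant, at 10.2, and Cdk1 close to it, at 27.2, so the sizes of their nodule differences depend on the constant. In the 2 HCC pairs alone the differences were 1.41 for Aurka (adjusted p = 0.262) and 1.13 for Cdk1 (adjusted p = 0.434).

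Likeness to Dbp was measured as the Pearson correlation of log2 values over the 10 arrays, which share mice and pairs, so the values describe these arrays only. Among the 11031 other genes, 24 reached 0.90 or more and 22 reached -0.90 or less. The highest were Lpin2 (0.97), Abcd3 (0.95), Ciart (0.95), Per3 (0.95) and Gatd3a (0.94). The lowest were Rai14 (-0.96), Crip2 (-0.95), Btg1 (-0.95), Arhgap1 (-0.94) and Tab2 (-0.94). Of the genes described here, Wee1 (0.92) ranked 13 and Tef (0.92) ranked 19 from the top, and Nfil3 (-0.86, but -0.55 by Spearman's coefficient) ranked 10977. Hlf (0.57), Tsc22d3 (0.28) and Bhlhe40 (-0.01) did not follow Dbp over the 10 arrays. Hlf was closer to Tef (0.82) and to Tsc22d3 (0.80). By Spearman's coefficient 0 of the 5 highest and 3 of the 5 lowest genes were the same.

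The likeness depended on the 3 arrays that stand apart. Over the 7 arrays left without them, 0 of the 5 highest and 0 of the 5 lowest genes were the same, and 136 genes reached 0.90 or more. Nfil3 then turned to 0.39, so its opposite course to Dbp was not seen among the other 7 arrays. Tef kept 0.89 and Abcd3 0.97, while Ciart was at 0.72, Wee1 at 0.65, Lpin2 at 0.79, Per3 at 0.70 and Tab2 at -0.28. Without the wild-type female pool alone the value was 0.83 for Hlf, 0.76 for Tsc22d3 and -0.84 for Nfil3. Without the male HCC mouse alone it was -0.09, -0.51 and -0.72, so Hlf and Tsc22d3 went with Dbp or not according to the arrays used.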

How the data were processed

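The authors deposited linear intensity values, 1 per probe set. Per the submitters' processing notes these came from the Affymetrix GCOS software, with version and settings not given in the sources used here. The mean of each deposited array, without the 2% of values at either end, was 500.0 to 500.3, which shows a common scaling, and median signals per array were 77.4 to 102.4. There were 45101 probe sets, of which 64 were controls, and no detection calls or scan dates were used here. Gene names came from the platform table by gene identifier: 34945 probe sets had 1 gene, 932 had several and 9211 were not listed.

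A constant of 16.8, the 20th percentile over the whole table, was added to each signal before log2, and a gene was tested where its mean log2 value was above that of a signal of 91. Linear models were fitted with limma 3.58.1 in R 4.3.3 (lmFit, eBayes with an intensity trend), with sex, genotype or mouse as a term, and p-values were adjusted by Benjamini-Hochberg over the 11032 genes. The fits were tested on simulated data. Nothing but the labels says that arrays came from separate mice, so p-values measure the spread between these arrays.

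The genes named were all 9 genes, Gnmt, up to 4 genes per list with the largest differences, the main loop genes, and the 5 genes most and least like Dbp. The genes and lists were chosen with earlier results of these data known. The 5 comparisons share arrays: genotype and sex use the same pools, the HCC pairs are part of the lesion pairs, and the age comparison reuses knockout pools and adjacent livers. Alternatives were the added constant, the scaling, the filter, the intensity trend, the second brightest probe set, a fit without the sex or mouse term, and leaving out arrays or pairs. A fit over all 10 arrays, and the likeness to Dbp without the 3 arrays that stand apart, were added after the data were seen.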

Additional observations from a re-analysis of the deposited data

Results flagged for a closer look

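For 5 genes the difference of knockout from wild-type liver at 11 weeks had opposite signs in the sexes, with 1 pool a side, and the difference between the sexes was not tested. The female value less the male value, in log2 units, was 5.98 for Dbp (5.74 and -0.23), 4.45 for Ciart (4.36 and -0.09), 3.72 for Wee1 (3.11 and -0.61), 1.62 for Bhlhe40 (1.32 and -0.30) and 1.27 for Tef (0.78 and -0.49). For all 5 genes the wild-type female pool was the lowest of the 4 pools. For Bhlhe40 the knockout female pool was also the highest, at 3947 against 1575 to 2479 in the other 3.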

How the results depend on the processing

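Over changes of the constant, scaling, filter, variance prior, probe set, sex or mouse term and a fit of all 10 arrays, 378 of 400 differences of the 8 genes kept direction and side of the threshold. Much of this agreement was fixed in advance. A change of filter, variance prior or, in the balanced comparisons, sex or mouse term leaves the difference itself unchanged. Nfil3, Ciart and Bhlhe40 had no second probe set to change to. None of the 8 genes passed in the main fits, so the count does not measure robustness. With an array or pair left out 100 of 144 did, 39 turned in sign and 5 newly passed. Centring on the 75th percentile moved the median of all genes by 0.15 for the genotype, -0.12 for sex and -0.18 for age, and quantile normalization by 0.07, -0.06 and -0.09.

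The number of genes that passed for the genotype was 2 under quantile normalization and 1 at the second probe sets, against 0. With 1 pair left out it was 0 to 1 for the lesions, and with 1 array left out 0 to 3 for the age comparison. At its dim second probe set Tef turned to -0.84 (genotype), 0.43 (sex), 1.04 (HCC), 0.74 (lesions) and 0.38 (age), and Hlf to -0.26 (HCC) and Tsc22d3 to -0.0308 (age). Over all 10 arrays the sex difference turned to 1.15 for Dbp, 0.67 for Tef, -0.64 for Nfil3, 0.71 for Ciart and 0.0033 for Wee1. Values near 0 turned with the scaling: the sex difference of Hlf to -0.0019 (quantile) and -0.0763 (75th percentile), the HCC difference of Nfil3 to -0.0018 and -0.0138, and under the 75th percentile those of Bhlhe40 (HCC) to -0.0223 and Tsc22d3 (age) to -0.0562. The cause of these changes was not tested.

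Leaving out a pool, in fits over all other arrays, gave genotype differences of -1.73 to 7.24 for Dbp, -1.24 to 1.52 for Tef, -1.04 to 5.32 for Ciart, -0.0703 to 1.08 for Bhlhe40 and -1.17 to 3.68 for Wee1. The sex differences, then set partly by aged tissue, were 1.40 to 3.39 for Dbp, 0.94 to 1.36 for Tef, -1.27 to -0.90 for Nfil3, 0.82 to 2.30 for Ciart, -0.18 to 0.36 for Bhlhe40 and -0.0247 to 1.22 for Wee1. Leaving out a pair gave HCC differences of -0.0405 to 0.0898 for Nfil3, -0.41 to 0.44 for Bhlhe40 and -0.57 to 0.0601 for Tsc22d3. Those of all lesions were -0.25 to 0.16 for Hlf, -0.28 to 0.0247 for Nfil3, -0.61 to 0.0173 for Bhlhe40 and -0.28 to 0.24 for Wee1. Leaving out an array gave age differences of -2.40 to 0.0081 for Tef, -0.0381 to 1.26 for Bhlhe40 and -0.87 to 0.88 for Tsc22d3. Fits without the sex or mouse term (no replicate block) called 0 of the 8 genes in each of the 5 comparisons. Signals below the constant, as for Ciart in the male HCC mouse, carry no measured difference.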
